A study of Mus musculus with 34 samples.

Results

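Lungs of mice given 18 µg of the carbon nanotube material NRCWE-044 were compared with control lungs 28 days after a single intratracheal instillation. The comparison rests on the 6 arrays labelled NRCWE-044 at 18 µg and all 5 arrays labelled as 0 µg controls, 11 of the 34 arrays in the series. One control array is titled as NRCWE-043 at 0 µg although its treatment label reads Control, and it was used as a control. All animals were female C57BL/6 mice, 5 to 7 weeks old, and each instillation was a 40 µl suspension delivered into the trachea. The labels do not say what was instilled into the controls. The other groups used here are NRCWE-044 at 54 µg (5 arrays), NRCWE-043 at 18 µg (5) and NRCWE-045 at 18 µg (3). Randomly cut pieces of the frozen tissue gave the RNA. Heart and liver were taken out at the same necropsy. The labels state 5 samples per group, whereas 6 arrays carry the NRCWE-044 18 µg label. Whether every array is a separate mouse is not stated, so the p-values below measure the spread between samples. In the main fit that spread is pooled over all 34 arrays of 7 groups.

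Carbon nanotubes that reach the alveoli are taken up by alveolar macrophages, and those that are cleared slowly can keep macrophages, neutrophils and lymphocytes active in the lung for weeks. The response of the mouse lung to such particles is known for acute phase proteins such as Saa3, for chemokines that call in monocytes and neutrophils, for lipid-laden macrophages that express Trem2 and Gpnmb, and for collagen deposition by fibroblasts. A piece of lung also holds airways, large vessels and whatever tissue adheres to them, and each brings its own transcripts.

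Each value is the log2 ratio of lung RNA, labelled with Cy5, to a universal reference RNA of 11 mouse cell lines, labelled with Cy3, so a value of 0 means equal signal in lung and reference. A log2 change is the difference between 2 group means of this ratio and is given with its standard error (SE). Across genes, pairs of arrays within the NRCWE-044 18 µg group correlated at 0.949 to 0.976, pairs of controls at 0.948 to 0.975, and pairs of 1 treated and 1 control array at 0.947 to 0.980. Arrays on the same slide correlated at 0.974 to 0.980 (6 pairs) and arrays on different slides at 0.947 to 0.973 (49 pairs). The first principal component of the 11 arrays (25.4% of the variance) had an R² of 0.990 for slide and 0.0806 for group. The third (13.1%) had 0.825 for slide and 0.569 for group. Slide has more levels than group, which by itself raises its R². Both groups were present on 3 slides, numbered 1, 2 and 5 here, so each named difference could also be read within a slide. In the lung channel, 51.1 to 65.8% of the probes on these arrays exceeded background clearly.

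Lungs given 18 µg of NRCWE-044 had a transcriptome close to that of the control lungs. Of 29307 genes and unnamed accessions tested, 0 passed in limma at an adjusted p under 0.05 (0%), and the smallest adjusted p was 0.999933. At an unadjusted p under 0.05 there were 917 (3.13%), fewer than the 1465 that a level of 0.05 allows. That fit leaves slide out. With slide as a fixed block the count was 1332. It was 1579 for the 2 groups alone with slide as a block, and 1541 on the slides that hold both groups. Of the 917, 473 lay above the controls (1.61%) and 444 below (1.51%). The log2 change was smaller than 0.5 in size for 99.4% of all 29307 units tested, with a median size of 0.0695 against a median SE of 0.108. Since no gene passed, the genes below were named by fixed rules of rank and of no overlap between the groups, and their values describe these 11 arrays. All 6 treated arrays lay above all 5 controls for 46 of the units tested (0.157%) and below all 5 for 73 (0.249%). Of the 462 ways to split 11 arrays into 6 and 5, 1 gives each outcome (a proportion of 0.00216). Both shares are near that proportion.

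**Figure D1:**
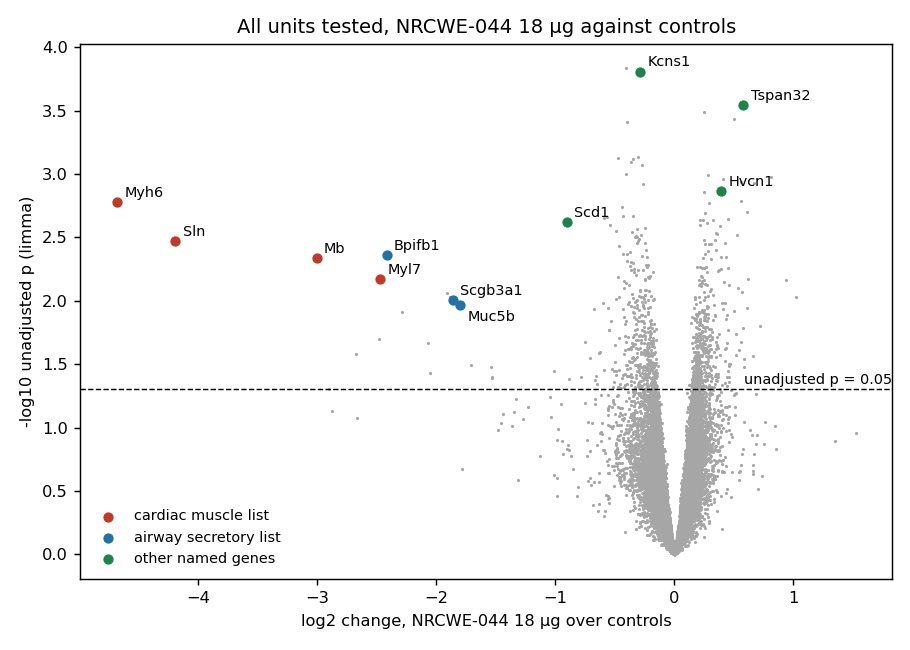
Log2 change in NRCWE-044 18 µg lungs over control lungs (horizontal axis) against the unadjusted p on a negative log10 axis, 1 point per gene or unnamed accession tested (29307 points). Nearly all points sit within 0.5 of 0, and the labelled points far to the left are heart muscle and airway secretory genes. Kcns1 was not well above background on any control.

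The genes lying furthest below the controls code for proteins of heart muscle. Myh6, the alpha myosin heavy chain of the contractile filament, had log2 ratios of -0.09 (lowest), 0.21 (median) and 2.27 (highest) on the 6 treated arrays, against 5.97, 4.15, 5.89, 5.48 and 4.62 on the 5 controls. The log2 change was -4.68 ± 1.36 (SE; unadjusted p 0.00167 in limma). Treated and control arrays did not overlap, and the within-slide differences were -4.36, -5.54 and -4.69 on slides 1, 2 and 5. A second Myh6 probe gave -0.67. With slide as a block the change was -4.26.

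Sln, the sarcolipin that regulates the calcium pump of atrial muscle, had treated values of -0.09, 0.12 and 1.09 (lowest, median, highest) and control values of 5.09, 2.73, 5.20, 5.83 and 3.39. Its log2 change was -4.19 ± 1.32, and it was well above background on 1 of 6 treated and 5 of 5 control arrays. For Mb, the oxygen store myoglobin, the treated arrays gave -0.58, -0.28 and 0.05, and the controls 3.23, 1.26, 3.47, 3.82 and 1.87. The change of Mb was -3.01 ± 0.99, with 1 of 6 treated and 5 of 5 control arrays above background, so the treated level is close to the detection limit. Myl7, the atrial regulatory light chain, had 0.38, 1.01 and 1.77 on the treated arrays, against 3.89, 2.10, 4.13, 4.68 and 2.92 on the controls (log2 change -2.47 ± 0.85). In each of these 4 genes the lowest control was replicate 2, and all 6 treated arrays lay beneath it.

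Further sarcomere genes separated the groups in the same direction. The atrial light chain Myl4 (-2.67 ± 1.15), the troponin subunits Tnnt2 (-2.48 ± 1.01) and Tnni3 (-1.71 ± 0.76) and the light chain Myl3 (-1.91 ± 0.68) also had every treated array below every control. Of the 18 heart muscle markers, 17 lay below 0, 8 had an unadjusted p under 0.05 and 8 did not overlap, against a background of 1.51% of units at that p and lower, and 0.249% without overlap. The list had a median log2 change of -1.25, against 0.00 over all units. Near 0 were 3 members picked after their values were seen, the light chain Myl2 (-0.02 ± 0.10), the peptide Nppb (0.00 ± 0.21) and the potassium channel subunit Kcnj3 (-0.04 ± 0.07). Each was well above background on at most 3 arrays of a group. In mice the walls of large pulmonary veins hold a sheath of heart muscle, so a section of lung can contain such RNA. Skeletal muscle markers had a median of -0.02 and liver markers -0.01.

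The heart muscle level differed from sample to sample throughout the series. Scored as the median over the list of each gene's value minus its control mean, it lay between -1.33 and -1.01 on the 6 treated arrays and was 0.22, -0.98, 0.62, 0.73 and -0.61 on the 5 controls. At 54 µg of NRCWE-044 it ran between -1.36 and 1.81, a range that spans all 11 arrays. Myh6 averaged 0.54 ± 0.90 (SD, n = 6) in NRCWE-044 18 µg lungs, 2.95 ± 3.16 (n = 5) at 54 µg and 5.22 ± 0.80 (n = 5) in controls. In bulk tissue, fewer cells of a type and less RNA per cell cannot be told apart, and whether more heart muscle was cut into the control sections was not tested. In a limma fit of the 2 groups alone, where the spread of the other groups does not enter, 5 units passed: Myh6 (adjusted p 0.00113), Sln (0.00598), Mb (0.0174), Scd1 (0.0271) and 1 unnamed accession (log2 change 0.81, adjusted p 0.0271). With the 3 slides that hold both groups and slide as a block, Myh6 passed alone (-4.81, adjusted p 0.0110 in limma). With slide as a block over all 11 arrays of the 2 groups, 0 units passed. Without control replicates 3 and 4, the controls with the highest heart muscle and airway levels, the list median was -0.60 and Myh6 stood at -4.37.

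The promoters of 2 of these genes are shown because Myh6 and Myl7 were measured above background on all 11 arrays and lay together below the controls. They cover the RefSeq gene start and the bases just before it, build GRCm38.p6, minus strand, at chr14:54966558-54966857 for Myh6 and chr11:5898733-5899032 for Myl7. Capitals mark TATAAA, the TATA box, searched on both strands along with AGATAA, a site bound by GATA factors. The letters of these motifs do not overlap with each other here.
Myh6: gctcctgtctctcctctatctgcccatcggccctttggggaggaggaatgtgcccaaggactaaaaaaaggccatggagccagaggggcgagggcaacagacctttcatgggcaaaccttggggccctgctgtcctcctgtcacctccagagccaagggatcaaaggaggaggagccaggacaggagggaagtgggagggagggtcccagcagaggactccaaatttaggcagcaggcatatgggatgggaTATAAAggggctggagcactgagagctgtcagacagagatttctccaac
Myl7: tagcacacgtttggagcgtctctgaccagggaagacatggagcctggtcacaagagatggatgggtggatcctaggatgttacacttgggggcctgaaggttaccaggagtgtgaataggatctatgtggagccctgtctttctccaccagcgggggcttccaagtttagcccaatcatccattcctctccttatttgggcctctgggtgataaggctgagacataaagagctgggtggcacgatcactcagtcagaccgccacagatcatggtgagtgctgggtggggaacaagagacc
Of 27025 promoters in the table, 14.2% hold TATAAA and 11.4% hold AGATAA. Among the 17 heart muscle promoters listed, 5 hold TATAAA and 5 hold AGATAA (29.4% each). Myl7 holds neither set of letters in this window.

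**Figure D2:**
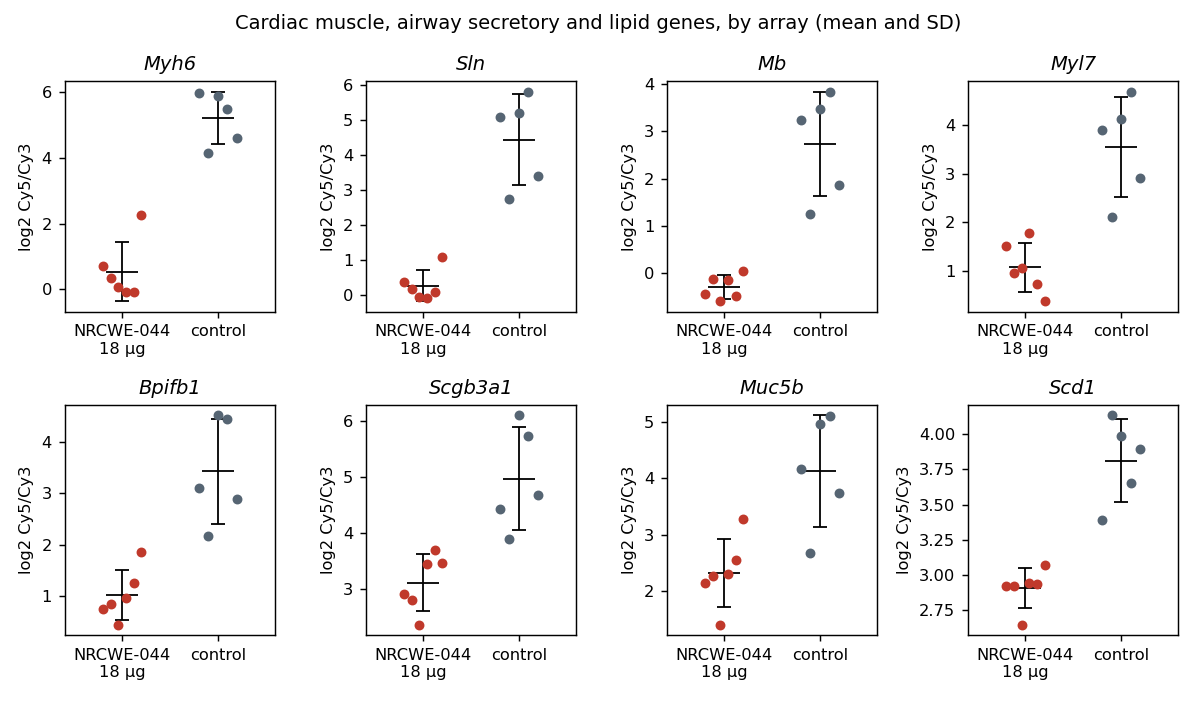
Log2 ratio of lung to reference RNA on each array for 8 genes that lay below the controls, NRCWE-044 18 µg arrays (6 points) left of control arrays (5 points), with the mean and SD of each group as lines. Heart muscle genes (Myh6, Sln, Mb, Myl7) and airway secretory genes (Bpifb1, Scgb3a1, Muc5b) show widely spread controls, whereas Scd1 has tight groups that do not overlap.

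Secretory products of the conducting airways also lay below the controls. Bpifb1, an antimicrobial protein of airway goblet and gland cells, had 0.43, 0.90 and 1.85 (lowest, median, highest) on the treated arrays and 3.10, 2.17, 4.53, 4.46 and 2.90 on the controls, a log2 change of -2.42 ± 0.79 (unadjusted p 0.00437). Every treated array was below every control, and the difference on slides 1, 2 and 5 was -1.89, -3.68 and -1.95. Scgb3a1, a secretoglobin of the upper airways, had 2.36, 3.18 and 3.69 on the treated arrays, against 4.43, 3.90, 6.11, 5.74 and 4.68 on the controls (-1.86 ± 0.68), again without overlap. Muc5b, the mucin that forms the resting mucus layer, had 1.40, 2.29 and 3.27 against 4.16, 2.67, 4.96, 5.11 and 3.73 (-1.80 ± 0.66), with 5 of 6 treated arrays below every control.

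Reg3g, an antibacterial lectin, did not overlap either (log2 change -2.67), though it was above background on only 2 of 6 treated arrays. Bpifa1, an abundant secreted protein of the nasal and large airway lining, had -2.90 ± 1.42 and rested on controls 3 and 4, which read 7.26 and 6.42 where the other controls read 0.98, 2.05 and 2.44. The club cell products Scgb1a1 and Cyp2f2, which were picked after their values were seen, stood at 0.16 and -0.09. The highest change in the list was 0.16. Of the 16 secretory genes, 12 lay below 0 (15 with slide as a block), where 50.4% of all units lay above it. Among them 4 were lower at an unadjusted p under 0.05, against 1.51% of all units. The list median was -0.25 (-0.27 with slide as a block, -0.36 without control replicates 3 and 4, -0.40 without treated replicate 1 and -0.16 without treated replicate 4). For Bpifb1, Scgb3a1 and Muc5b those 2 controls were the highest, as they were for the heart muscle score. Their part in these differences was not tested, and without them Bpifb1 stood at -1.71 and Bpifa1 at -0.90.

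Mucus and iron-binding genes outside that core had wide spreads. Clca1, a goblet cell product of type 2 inflammation, had -0.39, 0.28 and 3.05 on the treated arrays, against 6.73, 0.52, 3.32, 5.50 and 1.46 on the controls (-2.88 ± 1.56). The highest treated array, replicate 5, fell inside the control range. Ltf, the iron-binding lactoferrin, had -1.46 ± 0.84 with 5 of 6 treated arrays below every control. Il4ra, the receptor subunit for interleukins 4 and 13, had -0.35 ± 0.13 (-0.16 by another probe), and 5 of 6 treated arrays were below every control. The type 2 immunity list that holds Clca1 and Il4ra had a median of -0.12, with 12 of 22 genes below 0, and ran between -0.23 without control replicate 3 and -0.02 without control replicate 1. Ciliated cell genes, which mark airway epithelium as well, had a median of -0.11 (19 of 22 below 0, 0 at an unadjusted p under 0.05), which ran between -0.19 without treated replicate 6 and -0.05 without treated replicate 4.

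Scd1, the desaturase that makes monounsaturated fatty acids in type 2 cells and fat, had tight groups that did not overlap. Its treated arrays read 2.64, 2.93 and 3.07 (lowest, median, highest) and its controls 3.39, 4.13, 3.99, 3.65 and 3.89, for a log2 change of -0.90 ± 0.27 (unadjusted p 0.0024). The difference on slides 1, 2 and 5 was -0.84, -1.07 and -0.95, and with slide as a block -0.86. Fat cell markers lay below 0 in 17 of 17 members with a median of -0.56, but none had an unadjusted p under 0.05. The fat cell hormone adipsin, Cfd, stood at -1.79 ± 1.40, the lipogenic factor Thrsp at -0.86 ± 0.67 and resistin, Retn, at -0.98 ± 0.84. Without control replicates 3 and 4 the fat list had a median of -0.08 (-0.36 without replicate 4 alone), while Scd1 stayed at -0.90.

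Other named genes below the controls had smaller shifts. Col13a1, a transmembrane collagen of alveolar fibroblasts, had treated values of -0.03, 0.41 and 0.61 and control values of 1.05, 1.03, 0.64, 0.80 and 0.73 (log2 change -0.49 ± 0.15). It was above background on 4 of 6 treated and 5 of 5 control arrays. Grk5, a kinase that desensitises G protein-coupled receptors, had 1.32, 1.34 and 1.48 on the treated arrays, against 1.58, 1.75, 1.59, 1.79 and 1.76 on the controls (-0.32 ± 0.10). The transcriptional corepressor subunit Drap1 (-0.29 ± 0.09), the adaptor complex subunit Ap4s1 (-0.35 ± 0.09) and the peroxide-reducing enzyme Prdx1 (-0.30 ± 0.11; -0.08 by another probe) were also below every control. H2ap (-0.35 ± 0.10) was above background on 2 arrays of each group. The potassium channel subunit Kcns1 was not well above background on any control array and on 1 treated array, so no change is given for it.

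Lists of matrix genes and of structural cell types had medians near 0. Fibroblast and lipofibroblast genes had a median of -0.12 (14 of 19 below 0), with the lipofibroblast factor Tcf21 at -0.46 ± 0.22 and the matrix protein Dpt at -0.34 ± 0.16. Matrix and fibrosis genes had -0.08 (20 of 28 below 0), with the crosslinking enzyme Lox at -0.29 ± 0.16 (-0.04 by another probe) and elastin, Eln, at -0.29 ± 0.24. Endothelial genes had -0.03, with the endothelin receptor Ednrb at -0.40 ± 0.18 and the junction protein Pecam1 at -0.25 ± 0.18 (0.03 with slide as a block). Alveolar type 1 genes had -0.03. Mesothelial genes had -0.11, but 0.09 in the fit with a slide block. Leaving out treated replicate 6 gave 0.14, and that array scored -1.18 where the other treated arrays scored -0.26 to 0.30. Surfactant and type 2 genes had -0.05, with the phosphate transporter Slc34a2 at -0.37 ± 0.17 and the lipid remodelling enzyme Lpcat1 at -0.30 ± 0.15. At an unadjusted p under 0.05 and lower there were 3 of 19 fibroblast genes (Col13a1, Tcf21 and Dpt), 1 of 24 endothelial genes (Ednrb), 3 of 18 type 2 cell genes (Scd1, Slc34a2 and Lpcat1) and none of the matrix, type 1 or mesothelial genes, against 1.51% of all units. On the scanner's own processed signals Tcf21 (0.06) and Slc34a2 (0.30) had the opposite sign.

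Genes above the controls shifted by less, and several belong to leukocytes. Tspan32, a tetraspanin of blood cells, had -0.47, -0.26 and -0.13 (lowest, median, highest) on the treated arrays and -0.54, -1.29, -0.93, -0.86 and -0.71 on the controls, a log2 change of 0.58 ± 0.14 (unadjusted p 0.000286). Its other probes gave 0.23 and 0.35. Hvcn1, the proton channel that sustains the oxidative burst of phagocytes and B cells, had 1.38, 1.46 and 1.56 on the treated arrays, against 1.12, 0.76, 1.13, 1.03 and 1.27 on the controls (0.39 ± 0.11). In both genes each treated array exceeded each control.

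Syk, the kinase downstream of B cell and Fc receptors, had treated values of 1.82, 2.02 and 2.17 and control values of 1.70, 1.12, 1.62, 1.69 and 1.77 (0.43 ± 0.14). Its within-slide differences were 0.55, 0.43 and 0.40 on slides 1, 2 and 5. Plcg2, the phospholipase that Syk activates in B cells and macrophages, had 0.09, 0.31 and 0.46 on the treated arrays, against 0.05, -0.38, 0.05, 0.07 and 0.07 on the controls (0.32 ± 0.12). For Syk and Plcg2 the lowest treated array sat just above the highest control, and control replicate 2 lay far beneath the other controls. The actin regulator Evl, abundant in lymphocytes, had 0.56, 0.59 and 0.92, against 0.43, 0.22, 0.06, 0.23 and 0.42 (0.38 ± 0.12).

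The other named genes with all treated arrays above all controls had smaller shifts. They were the kinesin Kif13a (0.22 ± 0.07), the signal recognition particle subunit Srp68 (0.23 ± 0.08), the DNA end-binding protein Xrcc6 (0.20 ± 0.07), the splicing factor Sf3b3 (0.21 ± 0.08), the chromatin reader Phf7 (0.25 ± 0.10), the arginyltransferase Ate1 (0.14 ± 0.05) and the actin-binding protein Ivns1abp (0.30 ± 0.12; 0.05 by another probe).

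**Figure D3:**
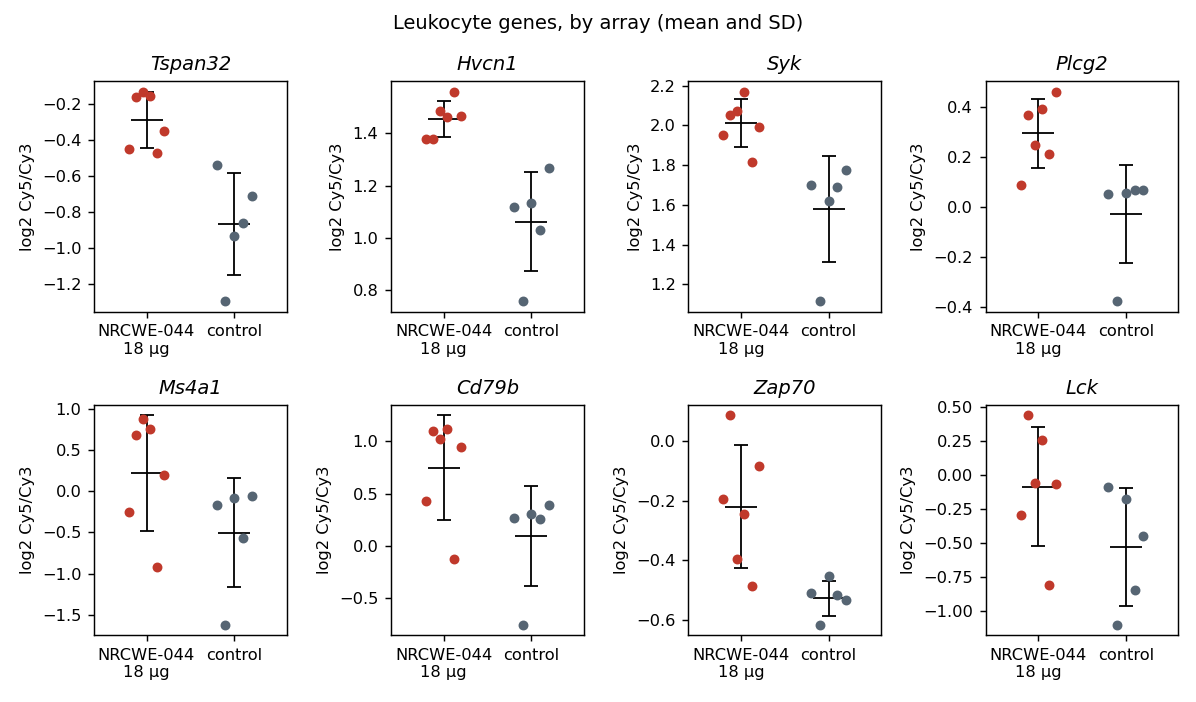
Log2 ratio of lung to reference RNA on each array for 8 leukocyte genes, NRCWE-044 18 µg arrays (6 points) left of control arrays (5 points), with the mean and SD of each group as lines. Tspan32, Hvcn1, Syk and Plcg2 were named because their groups do not overlap. The lymphocyte genes Ms4a1, Cd79b, Zap70 and Lck, named by smallest unadjusted p in their lists, do overlap. This contrast therefore follows from how the genes were chosen.

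Lymphocyte markers lay above the controls as groups, with overlapping arrays. All 17 B and plasma cell genes had a log2 change above 0, where 50.4% of all units did, and their median was 0.19. With slide as a block, 15 of the 17 lay above 0 and the median was 0.31. Ms4a1, which codes for the surface antigen CD20, read -0.92, 0.44 and 0.87 on the treated arrays, against -0.17, -1.62, -0.08, -0.57 and -0.06 on the controls (0.72 ± 0.28, unadjusted p 0.0159). Cd79b, a signalling chain of the B cell receptor, had -0.13, 0.99 and 1.12, against 0.27, -0.76, 0.30, 0.25 and 0.40 (0.66 ± 0.28), and the B cell coactivator Pou2af1 had 0.56 ± 0.23. Treated replicate 5 was the lowest treated array for all 3 genes and for the list score, at -0.22, where the other treated arrays scored 0.21 to 0.41 and the controls -0.20 to 0.14.

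T cell genes had a median of 0.22 with 16 of 19 above 0. The receptor kinase Zap70 had -0.49, -0.22 and 0.09 on the treated arrays, against -0.51, -0.62, -0.45, -0.52 and -0.53 on the controls (0.31 ± 0.11, unadjusted p 0.00805), with 5 of 6 treated arrays above every control. Lck, the kinase that starts T cell receptor signalling, had 0.45 ± 0.20 and the receptor chain Cd3g 0.35 ± 0.16. NK and cytotoxic genes had a median of 0.18 (0.10 without control replicate 2) with 12 of 15 above 0, among them the granzyme Gzma (0.43 ± 0.24) and the T cell attractant Ccl5 (0.40 ± 0.23). At an unadjusted p under 0.05 and higher there were 3 of 17 B cell, 3 of 19 T cell and 0 of 15 NK genes, against 1.61% of all units. Treated replicate 5 was again the lowest for Zap70, Lck and Cd3g, and control replicate 2 had the lowest control values of all 3. Erythroid genes, which follow the blood left in a lung, lay above 0 in 11 of 11 members with a median of 0.16, but in 8 of 11 with a median of 0.07 with slide as a block. Treated replicate 6 had an erythroid score of 0.67, where the other treated arrays scored -0.04 to 0.12 and the controls -0.09 to 0.12. Thymus markers, which overlap in kind with T cell genes, had a median of 0.14 with 8 of 9 above 0, and treated replicate 5 again scored lowest (-0.11, the others 0.05 to 0.29). The part of blood or thymus RNA in the lymphocyte shift was not tested.

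Antigen presentation and chemokine receptor genes of the same compartment had single members apart. H2-Oa, which tunes peptide loading of MHC class II in B cells, had 0.46 ± 0.20 with 4 of 6 treated arrays above every control, in a list with a median of 0.09. Ccr7, the receptor that brings lymphocytes and dendritic cells to lymphoid tissue, had 0.46 ± 0.24. Dendritic cell genes had a median of -0.00, with the lineage factor Irf4 at 0.22 ± 0.15 and the lectin Clec9a at -0.20 ± 0.20.

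Macrophage genes showed little shift at this dose. Abcg1, the cholesterol exporter of alveolar macrophages, had 2.25, 2.64 and 2.99 on the treated arrays, against 2.48, 2.13, 2.01, 2.11 and 2.26 on the controls, a log2 change of 0.45 ± 0.14 (unadjusted p 0.00225) with 5 of 6 treated arrays above every control. It was the 1 gene of the 29 in the lysosome and lipid list at an unadjusted p under 0.05, where 3.13% of all units were at that p. The lipid droplet protein Plin2 had 0.22 ± 0.12, the lysosomal membrane protein Lamp1 0.13 ± 0.07 and the tetraspanin Cd63 -0.22 ± 0.11. That list had a median of 0.05, alveolar macrophage genes 0.02 and monocyte and interstitial macrophage genes 0.05, with 0 of 16 and 0 of 17 genes at that p. The integrin Itgax stood at 0.15 ± 0.14 and the macrophage antigen Adgre1 at 0.24 ± 0.14 (0.14 by another probe).

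**Figure D4:**
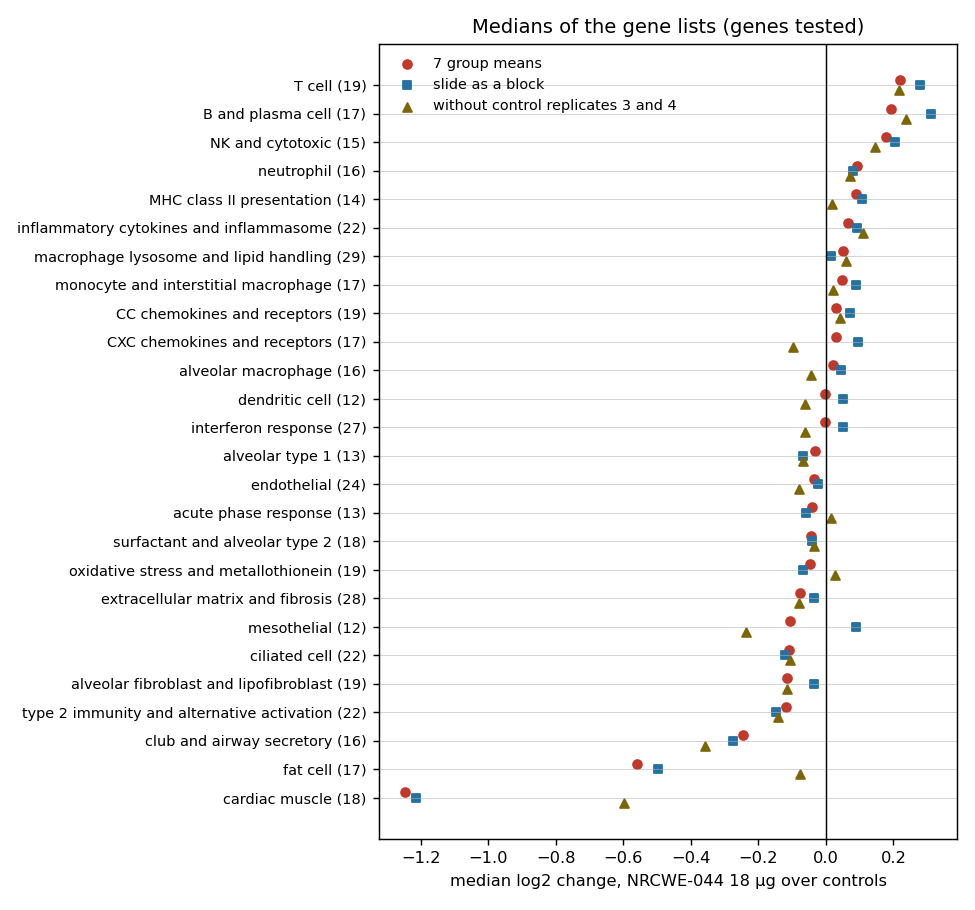
Median log2 change in NRCWE-044 18 µg lungs over controls for the 26 gene lists described, under the fit of 7 group means, with slide as a block, and without control replicates 3 and 4. Heart muscle (-1.25), fat cell (-0.56) and airway secretory genes (-0.25) lie lowest, lymphocyte lists lie highest, and 20 of the 26 medians are within 0.15 of 0. Over left-out single arrays those 20 ran between -0.23 and 0.14, so their sign can rest on 1 array.

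Genes of inflammation did not separate the groups. The 20 candidate genes of the lung response to particles had a median of -0.03, with 9 above 0 and 0 at an unadjusted p under 0.05 (0 at an adjusted p under 0.05 in limma). Saa3, an apolipoprotein made by lung epithelium in the acute phase response, read -4.06, -3.63 and -3.53 on the treated arrays, against -3.14, -4.02, -4.43, -3.73 and -4.02 on the controls (0.16 ± 0.49). Ccl2, the main monocyte attractant, had -0.21 ± 0.29, and the neutrophil attractants Cxcl1 and Cxcl5 had 0.05 ± 0.38 and 0.06 ± 0.67, with only 3 of 5 controls above background for each. The cytokines Il1b and Tnf stood at 0.04 ± 0.30 and 0.21 ± 0.16. The heme oxygenase Hmox1 stood at -0.07 ± 0.18 (0.31 by another probe), the protease inhibitor Timp1 at -0.03 ± 0.18 and the collagen Col1a1 at -0.19 ± 0.20. In each of these genes the treated arrays lay within or across the control range. The iron-sequestering Lcn2 (-0.04 ± 0.28), the osteopontin gene Spp1 (-0.15 ± 0.21), the arginase Arg1 (-0.20 ± 0.30), the elastase Mmp12 (-0.08 ± 0.12) and the macrophage lectin Chil3 (-0.30 ± 0.57) had changes smaller than their SE, as did the acute phase protein Saa1 (0.12 ± 0.20) and the chemokines Ccl7 (-0.11 ± 0.38) and Cxcl13 (-0.21 ± 0.51). Il6 was well above background on 1 treated array and no control, so no change is given for it. The candidates' SE ran up to 0.67, so a change of under 1 log2 unit in the noisier chemokines was not detectable with these arrays.

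Pathway lists of the same processes had medians close to 0 as well. Medians were -0.04 for acute phase proteins (13 genes tested), 0.03 for CC chemokines (19) and 0.03 for CXC chemokines (17). Cytokines and inflammasome (22) had 0.06, and neutrophils (16) had 0.09, or -0.13 without treated replicate 1. Interferon response (27) had -0.00 and oxidative stress (19) had -0.05. These lists held 2 genes at an unadjusted p under 0.05 together, both lower, where 3.13% of all units were at that p. They were the interferon-induced tether of virus particles Bst2 (-0.52 ± 0.24) and Prdx1. The chemokine Ccl8 stood at -0.73 ± 0.42 and the interferon-induced chemokine Cxcl9 at -0.71 ± 0.49. Neutrophil Trem1, an amplifier of inflammation, stood at 0.19 ± 0.10.

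The same material at 54 µg asked whether the low dose differs from the high one. No unit passed between the doses (0 in limma, 0%, smallest adjusted p 0.274), and 1534 had an unadjusted p under 0.05 (5.23%), 690 higher at 18 µg (2.35%) and 844 lower (2.88%). The doses did not overlap for 54 units higher at 18 µg (0.184%) and 101 lower (0.345%). Genes of the particle response lay lower at 18 µg. Of the 20 candidates, 19 lay below 0 in the difference between doses, where 50.3% of all units lay above, and 3 had an unadjusted p under 0.05. Only Col1a1 (0.05) lay above. For Trem2, the lipid-sensing receptor of macrophages, the 18 µg arrays gave -2.19, -2.05 and -1.60 (lowest, median, highest) and the 54 µg arrays -1.63, -1.08, -0.92, -0.84 and -0.90. That is a difference of -0.88 ± 0.30 (18 minus 54 µg), and the doses overlapped at 1 array.

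Gpnmb, a membrane glycoprotein of macrophages that hold much lipid, read -4.05, -3.80 and -3.67 at 18 µg and -3.76, -2.93, -2.69, -3.42 and -3.29 at 54 µg (-0.62 ± 0.28). The macrophage elastase Mmp12, above background on 2 of 6 arrays at 18 µg, had -0.45, -0.31 and -0.23 at 18 µg and -0.47, 0.06, -0.17, 0.40 and 0.08 at 54 µg (-0.30 ± 0.12). Ccl2 had -5.04, -4.85 and -4.59 at 18 µg and -4.21, -4.42, -4.41, -4.42 and -4.28 at 54 µg (-0.48 ± 0.29), without overlap. Against the controls, which both doses share, Saa3 had 0.16 ± 0.49 at 18 µg and 1.07 ± 0.51 at 54 µg. Trem2 had 0.10 ± 0.30 at 18 µg and 0.98 ± 0.31 at 54 µg, and Gpnmb 0.09 ± 0.28 and 0.70 ± 0.29 at the same doses.

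**Figure D5:**
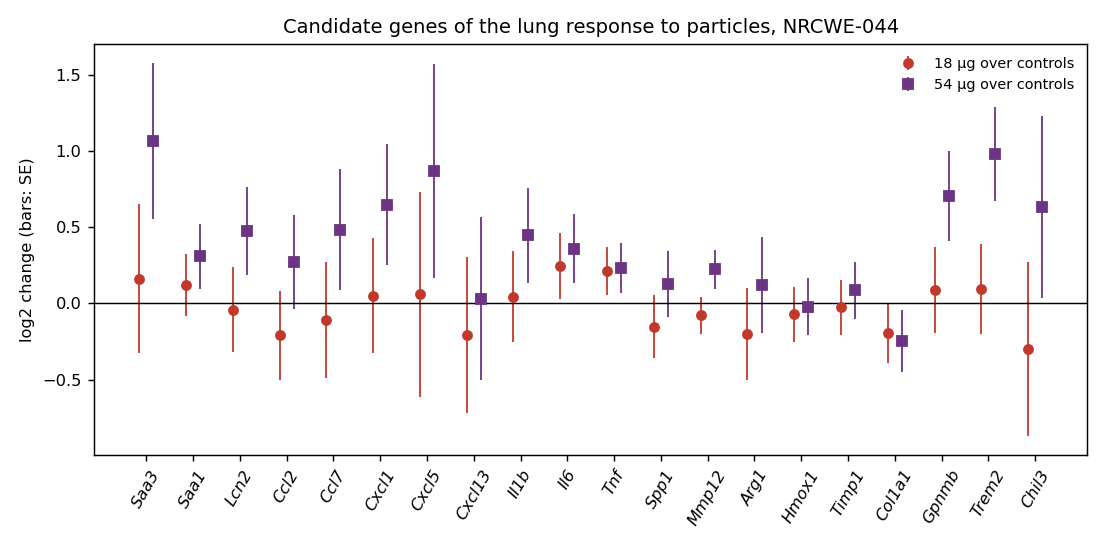
Log2 change over the shared 5 controls for the 20 candidate genes at 18 µg (6 arrays) and 54 µg (5 arrays) of NRCWE-044, with bars for the SE. At 18 µg the candidates cluster around 0, and Saa3, Trem2 and Gpnmb have values of 1.07, 0.98 and 0.70 at 54 µg. Il6 was not well above background on any control.

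Lists differed between the doses in the same direction. CC chemokines and receptors lay lower at 18 µg in 19 of 19 members (6 at an unadjusted p under 0.05, background 2.88%), with Ccl8 at -1.29. Macrophage lysosome and lipid genes lay lower in 21 of 29 (8 at that p) and interferon response genes in 24 of 27 (6). Type 2 immunity genes held 8 of 22 at that p and lower, with Clca1 at -4.86. Of the 26 list medians, 22 were lower at 18 than at 54 µg. Airway secretory genes (6 of 16 at that p) and fat cell genes (5 of 17) were among the lower lists too. The airway score ran between -0.92 and 0.06 at 18 µg, against -0.33 to 0.41 at 54 µg, and the fat score between -0.71 and -0.05 at 18 µg, against -0.55 to 3.16 at 54 µg. Their part in the other lists was not tested.

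Alveolar type 1 genes lay higher at 18 than at 54 µg in 13 of 13 members (median 0.18) and endothelial genes in 20 of 24 (median 0.12). Of all units, 50.3% lay higher. Each of the 2 lists held 1 gene higher at an unadjusted p under 0.05, against 2.35% of all units. Against the shared controls, Tspan32 had a change of 0.58 at 18 µg and 0.69 at 54 µg, Hvcn1 0.39 and 0.46, Syk 0.43 and 0.45 and Plcg2 0.32 and 0.39 at the same doses. These 4 genes were named because the 18 µg arrays lay above those same controls, so the values at 54 µg are not independent of that choice. Bpifb1 stood at -2.42 ± 0.79 at 18 µg and 0.27 ± 0.82 at 54 µg, a difference of -2.69.

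Named by rank between the doses were 5 genes in each direction, none passing. Rgs16, which shuts off G protein signalling, had -2.07, -1.80 and -1.71 at 18 µg and -1.02, -1.21, -1.30, -0.95 and -0.90 at 54 µg (-0.76 ± 0.17). Batf3, the factor that cross-presenting dendritic cells need, had -0.51, -0.38 and -0.22 at 18 µg and -0.03, 0.09, 0.24, 0.40 and 0.20 at 54 µg (-0.56 ± 0.13). Both had no overlap between doses. E230025N22Rik (-0.91 ± 0.17), Fndc7 (-0.54 ± 0.11) and the centrosome protein Cep131 (-0.30 ± 0.07) were lower at 18 µg as well. Higher were Zfp365 (0.44 ± 0.09), the meiotic recombination factor Mei4 (0.35 ± 0.08), Pdik1l (0.54 ± 0.16), 1700021F07Rik (0.27 ± 0.08) and Rnf112 (0.22 ± 0.06). The count of passing units was 3 without 54 µg replicate 4 and 63 in a fit of both doses alone with slide as a block.

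Against NRCWE-043 at the same 18 µg dose, which asks whether the materials differ, 3 genes passed in limma (0.0102% of units) and 1628 had an unadjusted p under 0.05 (5.55%). All NRCWE-044 arrays lay above all NRCWE-043 arrays for 72 units (0.246%) and below them for 52 (0.177%). Clmp, an adhesion molecule of cell junctions, was lower in NRCWE-044 lungs, at -1.65, -1.47 and -1.29 (lowest, median, highest), against -0.84, -0.81, -0.17, -0.92 and -0.25 in NRCWE-043 lungs, a difference of -0.87 ± 0.14 (adjusted p 0.0213). Tspan4, a tetraspanin, was higher in NRCWE-044 lungs, at 0.09, 0.49 and 0.90, against -0.67, -0.95, -0.01, -0.69 and -1.02 in NRCWE-043 lungs (1.19 ± 0.21, adjusted p 0.0430). Lonrf1, a RING finger protein with a LON protease domain, was also higher, at 0.50, 0.80 and 0.85, against 0.30, 0.26, 0.22, 0.21 and 0.06 in NRCWE-043 lungs (0.53 ± 0.09, adjusted p 0.0430). The materials did not overlap in any of the 3 genes.

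Clmp averaged -1.47 ± 0.15 in NRCWE-044 18 µg lungs (SD, n = 6), -0.60 ± 0.36 in NRCWE-043 18 µg lungs (n = 5) and -1.37 ± 0.19 in controls (n = 5). Tspan4 averaged 0.52 ± 0.33, -0.67 ± 0.40 and 0.12 ± 0.32 in NRCWE-044, NRCWE-043 and control lungs, and Lonrf1 0.74 ± 0.15, 0.21 ± 0.09 and 0.50 ± 0.12 in the same groups. Clmp was thus closer to the controls in NRCWE-044 than in NRCWE-043 lungs. The direction held in all 22 settings tried, but Clmp passed in 14 of them, Tspan4 in 10 and Lonrf1 in 8, and with slide as a block their adjusted p-values were 0.0695, 0.124 and 0.124. Without NRCWE-044 replicate 1 the count of passing units was 34, without replicate 4, 5 or 6 it was 0, and without NRCWE-043 replicate 1, 4 or 5 it was 1, 1 and 0.

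Next in rank was Spon2, a secreted matrix protein, at -3.06, -2.52 and -1.73 in NRCWE-044 lungs, against -0.55, 0.42, -0.86, -0.62 and -0.07 in NRCWE-043 lungs (-2.09 ± 0.39, adjusted p 0.0515 in limma). Controls read -2.55 to -1.36 for Spon2. Hlf, an output factor of the circadian clock, had 1.68, 2.00 and 2.41, against 1.42, 0.64, 1.43, 1.55 and 0.86 (0.86 ± 0.18, adjusted p 0.134). Clock genes had 8 of 20 members higher and 2 lower at an unadjusted p under 0.05 (background 3.84% and 1.72%), with a median of 0.37, while against the controls that median was 0.11 with 0 genes at that p. The elastin crosslinker Loxl1 (-0.74 ± 0.18), the acetyltransferase Nat8 (0.60 ± 0.13) and Mei4 (0.41 ± 0.08) were named as well. Matrix genes had 5 of 28 members lower at that p. All 20 candidates lay below 0 (0 at that p, where 52.2% of all units lay above 0), and NRCWE-043 replicate 3 held the highest value of Saa3 (-2.04), Trem2 (-0.43), Gpnmb (-1.70) and Mmp12 (0.06) in its group.

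Against NRCWE-045 at 18 µg, with 3 arrays, 0 units passed in limma (0%, smallest adjusted p 0.111) and 1802 had an unadjusted p under 0.05 (6.15%). With so few arrays, all of NRCWE-044 lay above all of NRCWE-045 for 275 units (0.938%) and below for 501 (1.71%). Secreted proteins of the liver were among the lower genes by rank. Serpina1a, a mouse copy of the antitrypsin gene, had -0.10, 0.18 and 0.78 in NRCWE-044 lungs and 2.84, 5.67 and 2.22 on the 3 NRCWE-045 arrays (-3.27 ± 0.65, adjusted p 0.111). Its near-identical copies Serpina1c (-2.76 ± 0.54) and Serpina1e (-2.58 ± 0.53) lay lower with it, and their probes may not separate these transcripts. Of 16 liver markers, 16 lay below 0 and 14 had an unadjusted p under 0.05 (background 4.13% lower), with a median of -1.72. The liver score lay between -0.10 and 0.03 on NRCWE-044 18 µg arrays and between -0.05 and 0.03 on controls, and was 0.20, 0.64 and 4.45 on the NRCWE-045 arrays in ascending order. The part of liver RNA in this comparison was not tested.

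Outside the liver genes, the threonine dehydrogenase Tdh (-0.46 ± 0.09) and the ubiquitin ligase Rnf180 (-0.38 ± 0.08) were lower in NRCWE-044 than in NRCWE-045 lungs by rank. The estrogen receptor Gper1 (0.76 ± 0.17), the proapoptotic factor Pmaip1 (0.62 ± 0.16), the exon junction protein Magohb (0.30 ± 0.08), the lysosomal protease Ctsf (0.45 ± 0.12) and Pdcl (0.38 ± 0.11) were higher. Without NRCWE-045 replicate 1, 2 or 3 the count of passing units was 82, 1 and 133, so the number of calls depends on single arrays.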

How the data were processed

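Two-channel arrays of 34 mouse lungs were analysed from the deposited Agilent scanner files, produced with Feature Extraction 11.0.1.1 per the file headers. Lung RNA was labelled with Cy5 and universal reference RNA with Cy3, per the labels. The deposited values used were median spot and background intensity in each channel, together with the scanner's flags for outliers and for signal well above background. The deposited series table of log2 ratios and the scanner's processed signals served as alternatives. Mean signals had been planned, but the files hold medians.

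Background was corrected by normexp with an offset of 50, which pulls dim ratios towards 0, and each array was loess normalised in limma 3.58.1 (R 4.3.3, statmod 1.5.0). Control spots and outlier flags were left out. Each gene was represented by its probe with the highest mean Cy5 signal, and units that exceeded background by the scanner's flag in Cy5 on 3 or more arrays were tested, 29307 in all, of which 17151 were named. Group means of 7 groups were fitted over all 34 arrays with a shared spread, followed by eBayes and Benjamini-Hochberg adjustment at 0.05. No 2 arrays held identical values. The number of arrays limits the precision.

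Slide came from the barcode in the name of each scanner file and is not stated in the labels. Genes were named as those passing, or else the 12 in each direction (5 for the other comparisons) with the smallest unadjusted p among genes without overlap. The 20 candidates and up to 4 members of each described list, by smallest p, with all non-overlapping members, were added. Members and the 44 gene lists were chosen with earlier results of these data known. The 26 lists described, the setting without control replicates 3 and 4, the left-out arrays of the other comparisons and the promoter motifs were chosen after values were seen. Promoter sequences are from RefSeq, GRCm38.p6. The code was tested on simulated data.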

Additional observations from a re-analysis of the deposited data

Results flagged for a closer look

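In 328 groups of 5 or 6 arrays tested by Dixon's criterion, 1 array stood apart from the rest of its group in 18. Chance alone sets about 1 in 20 such groups apart, so the number is near what chance gives, and each is reported as a value without explanation.

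Among NRCWE-044 18 µg arrays, replicate 5 stood low for Col1a1 (-3.37, the others -2.55 to -2.32), for the MHC class II modulator gene H2-Ob (2.07, the others 2.89 to 3.36) and for the B and plasma cell score (-0.22, the others 0.21 to 0.41). The same array stood high for Clca1 (3.05, the others -0.39 to 0.44). Replicate 6 stood high for Myh6 (2.27, the others -0.09 to 0.70). Replicate 4 stood high for Evl (0.92, the others 0.56 to 0.69). Replicate 3 stood low for Scd1 (2.64, the others 2.92 to 3.07) and for the macrophage product Retnla (3.84, the others 4.74 to 5.20). Replicate 2 stood high for Retn (1.64, the others -0.54 to 0.07) and low for the alveolar type 1 score (-0.29, the others -0.05 to 0.07).

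Among the controls, replicate 2 stood low for Syk (1.12, the others 1.62 to 1.77), Plcg2 (-0.38, the others 0.05 to 0.07) and Cd79b (-0.76, the others 0.25 to 0.40), and high for the signalling ligand Wnt4 (0.87, the others 0.30 to 0.43). Replicate 1 stood low for Xrcc6 (-1.99, the others -1.85 to -1.82) and for Kcns1 (-0.0332, the others 0.10 to 0.14), which was not well above background on any control. Replicate 3 stood low for Phf7 (-0.32, the others 0.00 to 0.09) and for the alveolar type 1 score (-0.21, the others -0.04 to 0.03).

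The difference between the materials at 18 µg passed in limma for Clmp (-0.87), Tspan4 (1.19) and Lonrf1 (0.53), as NRCWE-044 minus NRCWE-043.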

How the results depend on the processing

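Over all alternatives, 68 counts of passing units stayed within 1.5 times and 21 did not, 639 list medians moved by less than their spread and 11 by more, and 3413 gene changes kept sign and call, 5 gained a call and 15 turned sign. A change of sign was counted only where the change exceeded its own SE. Against controls, 5 units passed with the 2 groups alone (Myh6 -4.68, Sln -4.19, Mb -3.01, Scd1 -0.90) and 1 on the slides that hold both groups with slide as a block (Myh6 -4.81). With slide as a block over all arrays of the 2 groups, or over all groups, 0 passed. Against 54 µg, 63 passed with the 2 groups alone and slide as a block and 1 with array weights, and leaving out single arrays gave 0 to 3. Against NRCWE-043 at 18 µg, 0 passed with slide as a block in either fit, 11 with slide as a random block, 1 on processed signals, 1 in the series table and 6 with array weights, and leaving out single arrays gave 0 to 34. With the 2 groups alone 2 units passed, but Clmp, Tspan4 and Lonrf1 were not among them (adjusted p 0.108 each in limma). A similar count can therefore hold other genes. Against NRCWE-045 at 18 µg, leaving out single arrays gave 0 to 133. On processed signals the list medians were 0.0825 for endothelial, 0.0926 for type 2 cell and -2.07 for heart muscle genes. Heart muscle stood at -2.09 over its 8 genes above background on all arrays. Without control replicates 3 and 4, chosen for their high levels, the medians were -0.60 for heart muscle, -0.0762 for fat cell, -0.10 for CXC chemokine and 0.0282 for oxidative stress genes, and Retn read 0.0484. The cytokine median was 0.17 in both 2-group fits with slide as a block, and the neutrophil median ran between -0.13 and 0.13 over left-out arrays. Signs turned on processed signals for Cxcl15 (0.0365), Clec9a (0.26), Tcf21 (0.0637), Cdh5 (0.32), Tek (0.22), Slc34a2 (0.30) and Akap5 (0.15). In both 2-group fits with slide as a block they turned for Clec9a (0.0589), Pecam1 (0.13) and Tek (0.0815), and with slide as a block over all groups for Pecam1 (0.0266). The cause was not tested. No paired analysis was made, because replicate numbers count the arrays within a group and do not pair them between groups. Slide was the match used in its place, as a block and within the 3 slides that hold both groups. Probes below background limit what can be said of Sln, Mb, Reg3g, Mmp12 and Kcns1.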
